A study of Sus scrofa with 4 samples.

Results

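The expression of 10 genes for antioxidant enzymes was followed through the differentiation of porcine subcutaneous preadipocytes into adipocytes. The genes were the superoxide dismutases SOD1, SOD2 and SOD3, the catalase CAT, the glutathione peroxidases GPX3 and GPX4, the peroxiredoxins PRDX1 and PRDX6, the quinone reductase NQO1 and the haem oxygenase HMOX1. They were chosen by symbol from the 16192 protein-coding genes listed, by a rule that holds no measured value although earlier results of these data were known when it was set, and each symbol was found exactly once. Preadipocytes of male, 5-day-old Chinese Erhualian piglets were grown to confluence (D0) and induced with dexamethasone, 3-isobutyl-1-methylxanthine and insulin. They were collected on days 2 (D2), 4 (D4) and 8 (D8), with insulin alone between D2 and D4 and plain growth medium after D4. All stages shared the same serum-containing growth medium. The series holds no uninduced cells of later days, so time in culture and induction cannot be told apart. For each stage, equal amounts of RNA from 3 piglets were combined before a single rRNA-depleted library was made. There are therefore 4 libraries and no replicates, so the effect of a stage and that of its library cannot be told apart, and no stages were tested against each other.

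Superoxide dismutases turn superoxide into hydrogen peroxide, which catalase, glutathione peroxidases and peroxiredoxins then remove. Glutathione peroxidases draw on glutathione, most peroxiredoxins draw on thioredoxin, and both thiols are kept reduced with NADPH. NQO1 and HMOX1 act differently, by reducing quinones and by breaking down haem, and are widely used as readouts of the stress-responsive transcription factor NRF2 (gene NFE2L2). Fat cells store large amounts of fatty acids, whose peroxidation products are among the substrates of these enzymes.

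Expression was measured as FPKM, the fragments on a gene per kilobase of transcript and per fixed number of fragments counted, so that levels can be compared between genes. The reads behind each FPKM value were recovered, and 38964816 to 59362561 reads lay on protein-coding genes in each library. Between 70 and 99985 reads lay on a single antioxidant gene. RNA of the signal recognition particle took 42.4% to 50.2% of all FPKM in a library. The 95% intervals given below come from these read numbers and cover counting error only, since neither piglets nor library preparations were measured separately. A gene was taken as reliably expressed at FPKM of at least 1 in at least 3 libraries, which 9191 mRNAs and all 10 antioxidant genes were. The terms rose and fell are used for a ratio of at least 2 between 2 libraries on log2(FPKM + 0.01), as a description of these libraries. The 11 adipocyte markers summed to 127 FPKM at D0 and then 519.5 (D2), 1846 (D4) and 2169 (D8), with LEP below 1 throughout. FABP4 was the largest part of this sum at every stage, with 77.5 FPKM at D0 and 201 at D2. From D4 to D8, FABP4 (853 to 1557 FPKM), CIDEC (5.01 to 54.6) and LEP were higher. The other markers of this list were lower, among them PLIN1 (215 to 90.3), CEBPA (162 to 37.1) and PPARG (51.9 to 25.8). Of 9 macrophage markers, the leukocyte gene PTPRC and ADGRE1 stayed under 0.1 FPKM. Another 4 of them reached 1 FPKM in a library. CD14 was the highest at every stage, with 3.14, 5.64, 7.54 and 2.78 FPKM in order of stage. The macrophage list as a whole summed to between 5.10 and 9.88 FPKM. Of 6 endothelial markers, 5 were listed, and they summed to between 1.16 and 2.65 FPKM. Of these, CDH5, VWF, KDR and TEK were under 0.1 FPKM and PECAM1 had 2.56, 1.14, 1.70 and 1.87 FPKM in order of stage. HBB and HBM, the erythroid genes found, reached no more than 0.469 FPKM together. Of 9 preadipocyte and fibroblast markers, 8 were listed, and they summed to 1129.7, 2272, 3034 and 2296 FPKM in order of stage. COL3A1 was the largest part of this sum (491, 1286, 2058 and 1624 FPKM), whereas THY1 had 105, 101, 88.0 and 78.8 FPKM. Smooth muscle markers moved against the adipocyte markers at first, with summed FPKM of 3859.7, 382, 296 and 2362 in order of stage. TAGLN was the largest part of this sum, with 1987 FPKM at D8, whereas DES had 436 FPKM at D0 and 35.7 at D8. In pooled cultures of this kind, more cells of a type and more RNA per cell cannot be told apart.

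The antioxidant genes did not move as a group. CAT and GPX3 rose strongly to D4 and fell by D8. SOD2, NQO1 and HMOX1 were highest at D2 and were within 2-fold of D0 again at D8. SOD1, GPX4, PRDX1 and PRDX6, which include the most abundant genes at D0, stayed within 2-fold in all 5 comparisons, which set each stage against the stage before it and D4 and D8 also against D0. SOD3 was the least abundant at every stage and fell late. The highest and lowest stages differed at least 2-fold for 6 of the 10 genes, against 30.8% of the 9191 mRNAs.

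**Figure D1:**
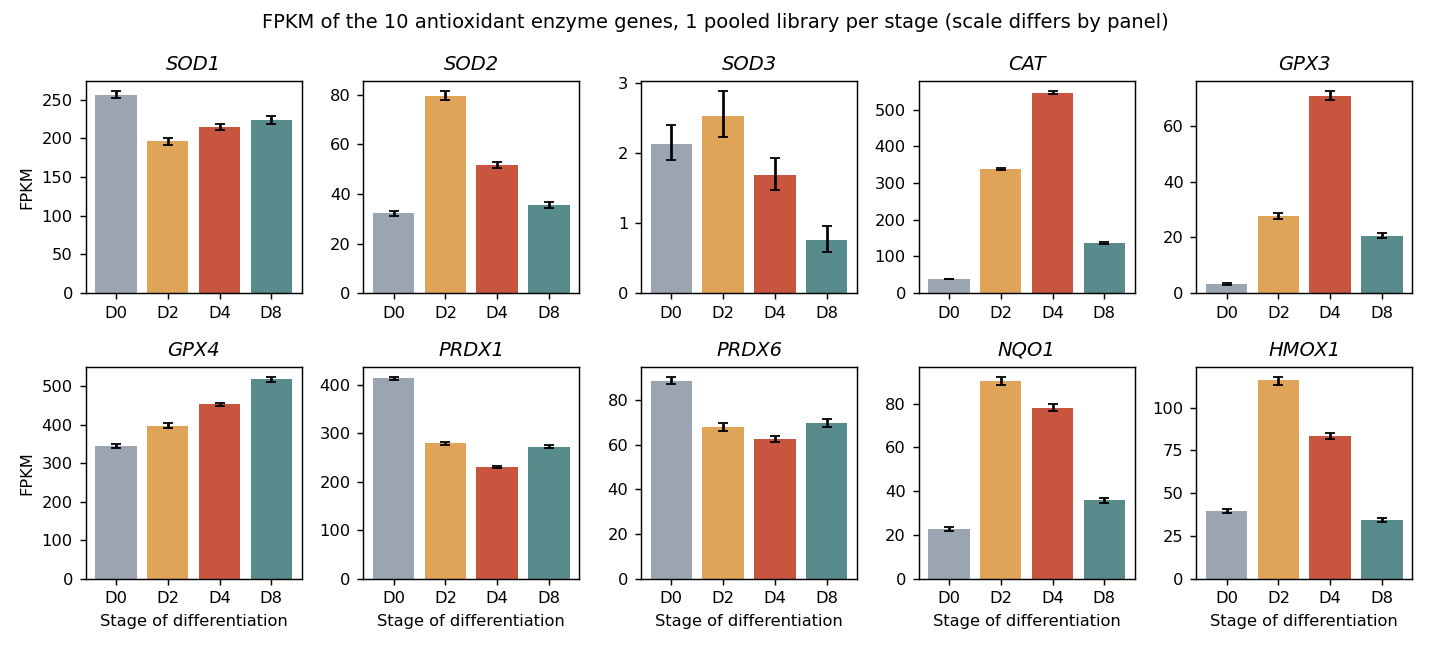
FPKM (vertical axis, from 0, with a scale of its own in each panel) of the 10 antioxidant enzyme genes at D0, D2, D4 and D8, with 1 bar per pooled library and 95% counting intervals as whiskers. CAT and GPX3 stand highest at D4, SOD2, SOD3, NQO1 and HMOX1 at D2, GPX4 at D8, and SOD1, PRDX1 and PRDX6 at D0.

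Catalase, the peroxisomal enzyme that splits hydrogen peroxide into water and oxygen, showed the largest movement in absolute level. CAT lies on the minus strand of chromosome 2 from 26493664 to 26533881 (Sscrofa11.1). Its FPKM was 39.0 (7226 reads) at D0 and 339 (45747 reads), 547 (99985 reads) and 137 (18182 reads) at the later stages D2, D4 and D8. All later stages were above D0, and D4 stood above the others. The log2 ratio of D2 to D0 was 3.12 (95% counting interval 3.08 to 3.15), an 8.68-fold rise, and only 52 of the 9191 mRNAs had a higher ratio. From D2 to D4 the ratio was 0.69 (0.68 to 0.71), and at D4 the gene was 14-fold above D0, with a log2 ratio of 3.81 (3.78 to 3.84). By D8 it had fallen 4.0-fold from D4, with a log2 ratio of -2.0 (-2.02 to -1.98), and 79 mRNAs had a lower ratio. It nevertheless remained 3.50-fold above D0, with a log2 ratio of 1.81 (1.77 to 1.85). Among the reliably expressed mRNAs, CAT moved from place 1436 by FPKM at D0 to place 161 (D2), 115 (D4) and 410 (D8). The summed adipocyte markers were also above D0 at every later stage and the smooth muscle markers below D0. From D4 to D8, FABP4, CIDEC and LEP were higher, whereas the other adipocyte markers were lower, as CAT was. The part of either cell type in the course of CAT was not tested.

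GPX3, which encodes the secreted, selenium-containing glutathione peroxidase of plasma, lies on the minus strand of chromosome 16 from 71980467 to 71989011. It followed the course of CAT at a lower level, with FPKM of 3.18 (375 reads) at D0 and 27.8 (2391 reads), 70.8 (8243 reads) and 20.6 (1748 reads) at the later stages D2, D4 and D8. D0 was the lowest library and D4 the highest, and D2 and D8 lay between them. The log2 ratio of D2 to D0 was 3.12 (2.97 to 3.28), the same as that of CAT to 2 decimals. GPX3 alone among the 10 genes rose again from D2 to D4, by 1.35 (1.28 to 1.42). At D4 it was 22.2-fold above D0, with a log2 ratio of 4.47 (4.32 to 4.62), which 34 mRNAs exceeded. From D4 to D8 it fell 3.43-fold, with a log2 ratio of -1.78 (-1.85 to -1.70), and at D8 it was still 6.47-fold above D0 (2.69, 2.53 to 2.86). CAT and GPX3 were the only antioxidant genes that differed at least 2-fold from D0 at D2, D4 and D8, as 4.28% of all reliably expressed mRNAs did. These 3 comparisons share the D0 library.

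GPX4, also a selenoenzyme, reduces lipid hydroperoxides inside membranes and protects cells from ferroptosis. The gene is on the minus strand of chromosome 2 from 77321568 to 77323931. Its FPKM was 344 at D0 and then 398 (D2), 453 (D4) and 518 (D8), on 19475 to 29975 reads. Each stage was above the stage before it, in small steps. The log2 ratio was 0.21 (0.18 to 0.24) for D2 vs D0, 0.19 (0.16 to 0.21) for D4 vs D2 and 0.19 (0.17 to 0.22) for D8 vs D4. Over the whole course it added up to 0.59 (0.56 to 0.62), or 1.51-fold. GPX4 was the only one of the 10 genes that was highest at D8, as 9.51% of all reliably expressed mRNAs were.

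PRDX1 and PRDX6, the peroxiredoxins among the 10 genes, went the other way, without passing 2-fold. PRDX1, a cytosolic peroxidase that is reduced by thioredoxin, lies on the plus strand of chromosome 6 from 165847390 to 165859918. Its FPKM was 414 at D0 and then 279.9 (D2), 231 (D4) and 273 (D8), the highest of the 10 genes at D0. The log2 ratio to D0 was -0.56 (-0.58 to -0.54) at D2, -0.84 (-0.86 to -0.82) at D4 and -0.60 (-0.62 to -0.58) at D8. PRDX6, which uses glutathione and also has a phospholipase activity, lies on the plus strand of chromosome 9 from 115857629 to 115868898. It had FPKM of 88.7 at D0 and then 67.8 (D2), 62.5 (D4) and 69.5 (D8). Like PRDX1, it was highest at D0 and lowest at D4, with a log2 ratio of -0.51 (-0.55 to -0.46) for D4 vs D0.

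The mix of transcripts among these members for peroxide removal therefore differed between the libraries. Other peroxidase genes, among them GPX1 (329 FPKM at D4), PRDX2 (327) and PRDX4 (216), are outside the sum below. The shares are therefore not those of all peroxide removal. Summed over CAT, GPX3, GPX4, PRDX1 and PRDX6, FPKM was 889 at D0 and then 1112 (D2), 1364 (D4) and 1018 (D8). CAT made up 4.39% of this sum before induction, then 30.5%, 40.1% and 13.4% at D2, D4 and D8. PRDX1 made up 46.5% at D0 and 16.9% at D4. GPX4 held 38.7%, 35.8%, 33.2% and 50.9% in order of stage. At D4 the CAT transcript was thus the most abundant of the 10, whereas PRDX1 led at D0 and GPX4 at D2 and D8.

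**Figure D2:**
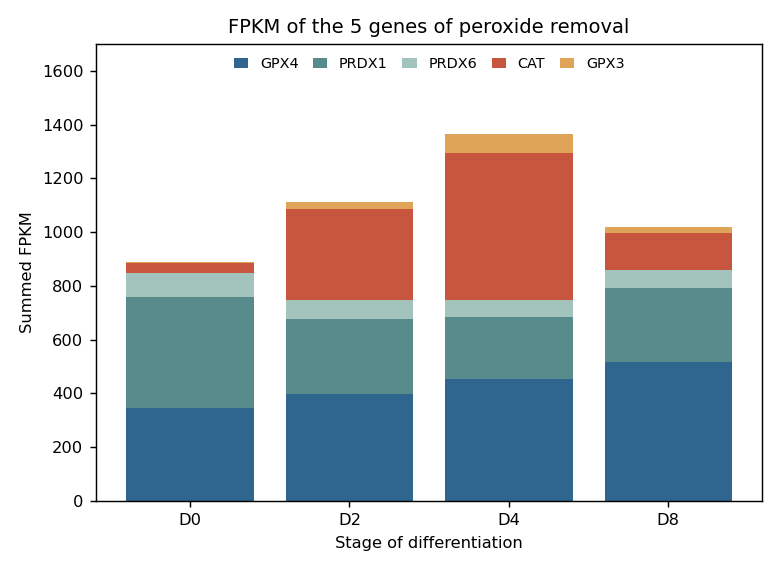
Summed FPKM (vertical axis, from 0) of the 5 member genes for removal of peroxides at each stage, stacked by gene, from 1 pooled library per stage. Other peroxidase genes, such as GPX1 and PRDX2, are not included. The CAT segment grows from 4.39% of the sum at D0 to 40.1% at D4 and is 13.4% at D8, while the PRDX1 segment is tallest at D0.

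The 3 superoxide dismutases, which work in different compartments, followed different courses. SOD1, the copper- and zinc-containing enzyme of the cytosol, lies on the plus strand of chromosome 13 from 195326573 to 195335273. It had FPKM of 256 at D0 and then 197 (D2), 215 (D4) and 224 (D8), a span of 1.30-fold. SOD2, the manganese enzyme of the mitochondrial matrix, lies on the plus strand of chromosome 1 from 7679352 to 7689564. Its FPKM was 32.2 (4062 reads) at D0 and 79.7 (7326 reads), 51.7 (6425 reads) and 35.7 (3229 reads) at the later stages D2, D4 and D8. It rose 2.47-fold from D0 to D2, with a log2 ratio of 1.31 (1.25 to 1.36), and was then lower at each stage, with -0.62 (-0.67 to -0.58) for D4 vs D2 and -0.53 (-0.60 to -0.47) for D8 vs D4. At D8 it was 0.15 (0.08 to 0.21) from its D0 level. Its share of the summed FPKM of the 3 dismutases was 11.1%, 28.6%, 19.3% and 13.7% in order of stage, and SOD1 held most of the remainder.

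SOD3, the secreted dismutase of the extracellular matrix, was close to the limit of reliable expression. The gene lies on the plus strand of chromosome 8 from 18796633 to 18802156. Its FPKM was 2.14 (274 reads) at D0 and 2.54 (237 reads), 1.69 (213 reads) and 0.763 (70 reads) at the later stages D2, D4 and D8. D8 was the lowest library and the only value below 1 among the 10 genes. The difference between D2 and D0 was within counting error, with a log2 ratio of 0.24 (-0.01 to 0.50). From D4 to D8 the ratio was -1.14 (-1.53 to -0.75), and at D8 the gene was 2.79-fold below D0 (-1.48, -1.86 to -1.10). Both falls of SOD3 were under 2-fold with a pseudocount of 1, at -0.61 and -0.83.

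NQO1 and HMOX1 shared their highest and second highest stages, D2 and D4. NQO1, which reduces quinones without releasing semiquinone radicals, lies on the plus strand of chromosome 6 from 17292962 to 17302593. Its FPKM was 22.7 (2902 reads) at D0 and 90.4 (8445 reads), 78.2 (9881 reads) and 35.8 (3295 reads) at the later stages D2, D4 and D8. It rose 3.99-fold from D0 to D2 (log2 ratio 2.0, 1.93 to 2.06), stayed near that level at D4 (-0.21, -0.25 to -0.17) and fell 2.18-fold to D8 (-1.13, -1.18 to -1.07). At D8 it was 1.58-fold above D0. HMOX1, the inducible haem oxygenase that releases iron, carbon monoxide and biliverdin, lies on the plus strand of an unplaced scaffold from 1954828 to 1963836. It had FPKM of 39.7 (4632 reads) at D0 and 116 (9846 reads), 83.4 (9603 reads) and 34.2 (2866 reads) at the later stages D2, D4 and D8. The gene rose 2.91-fold from D0 to D2 (1.54, 1.49 to 1.59) and fell 2.44-fold from D4 to D8 (-1.29, -1.35 to -1.23). Its level at D8 was slightly under that at D0 (-0.21, -0.28 to -0.15), but the median mRNA was also lower at D8, and relative to that median the difference was -0.03. The markers of macrophages, a cell type rich in HMOX1, summed to 5.10, 9.28, 9.88 and 7.25 FPKM in order of stage. CD14 alone gave 3.14, 5.64, 7.54 and 2.78 FPKM of these sums. The part of macrophages in the course of HMOX1 was not tested.

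Set beside all reliably expressed mRNAs, the early stage held the most rises. From D0 to D2, 5 of the 10 genes rose and none fell at least 2-fold (CAT, GPX3, NQO1, HMOX1 and SOD2), against 16.8% of all mRNAs past 2-fold in either direction, with 6.67% higher and 10.1% lower. The median log2 ratio of the 10 genes was 0.78, beside -0.03 for all 9191 mRNAs. From D2 to D4 only GPX3 passed 2-fold, against 5.08% of all mRNAs (4.24% higher and 0.838% lower), and the median was -0.16 beside 0.09. From D4 to D8, 5 genes fell and none rose (CAT, GPX3, HMOX1, SOD3 and NQO1), against 14.5% of all mRNAs past 2-fold, with 4.43% higher and 10.1% lower. The median of the 10 genes was -0.83 in that comparison, whereas all mRNAs had a median of -0.21. After median-ratio scaling, which sets the typical mRNA to no change, 3 genes fell from D4 to D8, since NQO1 moved to -0.92 and SOD3 to -0.93, and 6.43% of all mRNAs were higher and 5.94% lower.

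Relative to D0, CAT, GPX3, NQO1 (3.45-fold) and HMOX1 (2.10-fold), or 4 genes, were at least 2-fold higher at D4 and none was lower, against 19.2% of all mRNAs (10.4% higher and 8.81% lower). The median of the 10 genes was 0.54, beside 0.06. At D8, CAT and GPX3 were at least 2-fold higher and SOD3 at least 2-fold lower, so that 3 of the 10 passed, against 7.28% of all mRNAs (3.60% higher and 3.68% lower, or 4.41% and 2.26% after median-ratio scaling). The median over the 10 genes was then -0.02, beside -0.18 for all mRNAs, and it was 0.13 beside -0.03 after median-ratio scaling. The comparisons D4 vs D0 and D8 vs D4 share the D4 library, so that a high value in this library adds to a rise in the first and a fall in the second.

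**Figure D3:**
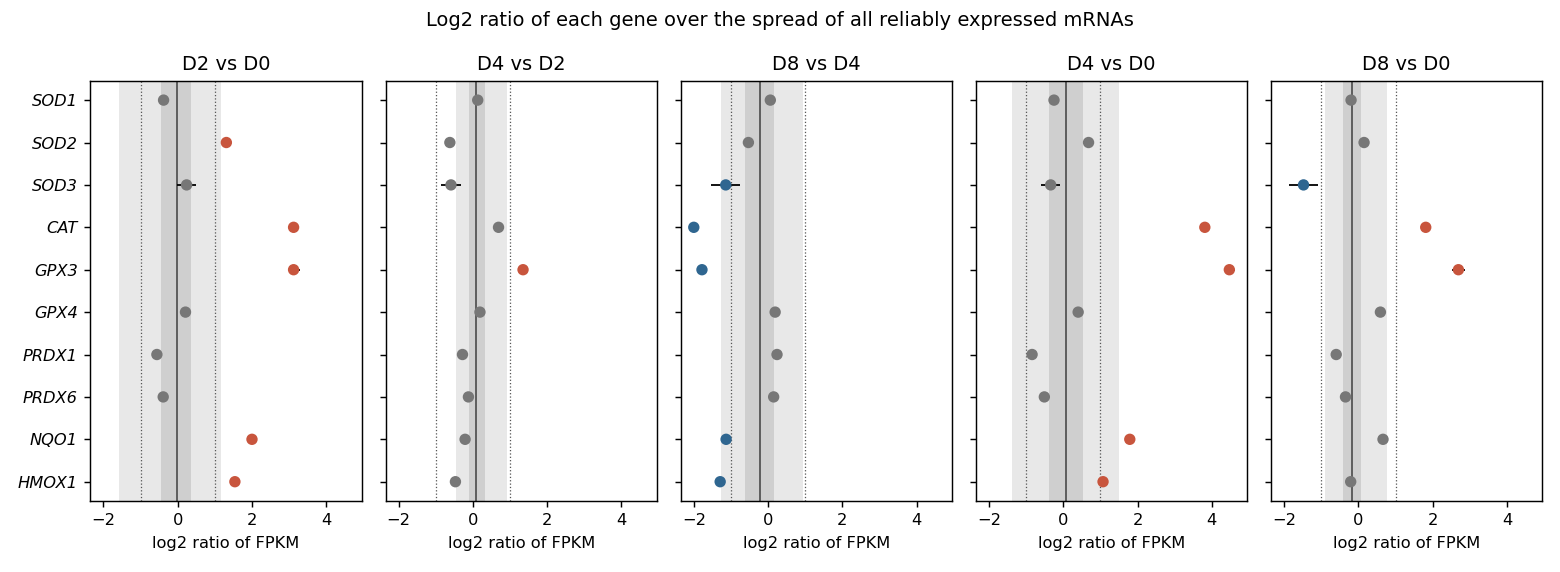
Log2 ratio of FPKM (horizontal axis) of each antioxidant enzyme gene in the 5 comparisons, with 95% counting intervals as whiskers where wider than the point. Light and dark bands span percentiles 5 to 95 and 25 to 75 of the 9191 reliably expressed mRNAs, the solid line is their median, dotted lines mark 2-fold, and red and blue points are at least 2-fold higher and lower. CAT and GPX3 lie to the right of the light band in D2 vs D0, D4 vs D0 and D8 vs D0, and to its left in D8 vs D4.

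By counting error alone, the order of the 10 genes by FPKM was clear at most places. Spread between piglets or libraries was not measured and could change the order of close genes. Of neighbours in this order, the counting intervals overlapped for HMOX1 (39.7) and CAT (39.0) at D0. They also overlapped at D8 for NQO1 (35.8) and SOD2 (35.7) and for SOD2 and HMOX1 (34.2). At D2 and D4 no neighbours overlapped. GPX4, PRDX1 and SOD1 kept within the top 3.00% of the reliably expressed mRNAs at all stages, whereas SOD3 was in place 7353 at best.

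Circular RNAs with both ends inside a gene and on its strand were listed for 1 of the 10 genes. The share of all mRNAs with such circRNAs was not counted, so this number cannot be called low or high. A pair of circRNAs lay within CAT on the same strand, measured as SRPBM, the back-splice junction reads scaled to the mapped reads of the library. The circRNA ssc_circ_0001120, from 26502035 to 26518029, was listed at 0 at D0 and D2 and had 101 SRPBM (17 junction reads) at D4 and 50.4 SRPBM (6 junction reads) at D8. The second, ssc_circ_0001121, from 26510645 to 26515915, was found at D8 alone, with 118 SRPBM (14 junction reads). The authors kept circRNAs from 2 junction reads, so that a value of 0 means not detectable at this depth. A single junction read corresponds to 5.94 (D4) to 8.40 (D8) SRPBM, and 3 reads to 17.8 to 25.2 SRPBM. The circRNAs were thus seen at D4 and D8, while the linear CAT FPKM was higher at D2 than at D8. No lncRNA overlapped any of the 10 genes on either strand. Of other genes on the opposite strand, SCAF4 overlapped SOD1 by 96 bases, with FPKM of at most 0.952, and a second gene overlapped PRDX6 by 554 bases, with FPKM of at most 0.0283.

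The genes whose course over the 4 libraries was most like that of an antioxidant gene were searched among 4602 reliably expressed mRNAs with FPKM of at least 10 in a library. Symbols starting with LOC and the 10 antioxidant genes were left out, so none of the 10 could be named as nearest to another. Likeness was the root mean square difference of centred log2 FPKM over the 4 libraries, which is a coarse measure with so few points. For CAT these were GLUL, the glutamine synthetase gene (0.12; FPKM 35.5, 288, 412 and 127), and the inositol transporter SLC5A3 (0.18). For GPX3 they were PRKAR2B, a regulatory subunit of protein kinase A (0.17), and SELENOP, which encodes a plasma selenoprotein (0.26). NQO1 was closest to TRAPPC6A (0.03) and ACAD11 (0.07). HMOX1 was closest to the growth factor receptor gene PDGFRA (0.08; FPKM 75.8, 189, 149 and 60.8) and to ANKRD10 (0.12). SOD2 was closest to CA12 (0.04), a carbonic anhydrase gene, and to RND3 (0.08). The nearest genes to SOD3 were CLU (0.14) and TGFBI (0.22), both for secreted proteins.

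Other genes of the same families and of the systems that supply them were examined in 8 lists. Among the remaining glutathione peroxidases, GPX1, the cytosolic form, had FPKM of 187 at D0 and then 332 (D2), 329 (D4) and 312 (D8). GPX1 was thus higher after induction but under 2-fold (log2 ratio 0.82 for D2 vs D0). GPX7 stayed between 8.53 and 11.3 FPKM, and GPX8 was lowest at D4, with 59.0 FPKM against 91.6 at D0. Of the other peroxiredoxins, PRDX2 had 199, 334, 327 and 227 FPKM in order of stage, and PRDX5 had 59.2, 93.2, 83.7 and 67.6. The mitochondrial PRDX3 stayed between 57.4 and 70.5 FPKM, and PRDX4 of the endoplasmic reticulum was lowest at D4 (216 FPKM). None of these 7 genes passed 2-fold in any comparison. Most mRNAs also moved little, as 30.8% of the 9191 differed at least 2-fold between their highest and lowest stages.

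In the glutathione system, 5 of 19 reliably expressed genes were at least 2-fold higher at D4 than at D0 and 5 were lower. Of all mRNAs, 10.4% were higher and 8.81% lower, and the median log2 ratio of the list was 0.09, beside 0.06 for all mRNAs. MGST1, a membrane-bound glutathione transferase, rose 12-fold (32.5 to 389.8 FPKM, log2 ratio 3.59, 3.50 to 3.67) and GSTK1 rose 3.49-fold. SLC7A11, the cystine importer, fell 3.44-fold (16.5 to 4.8 FPKM) and the glutaredoxin GLRX fell 3.45-fold. In the peroxiredoxin and thioredoxin list, 4 of 17 genes were at least 2-fold higher and 2 lower at D4, against 10.4% and 8.81% of all mRNAs, and the median was -0.04 beside 0.06. The sestrin SESN1 rose 6.52-fold and TXNIP, an inhibitor of thioredoxin, rose 2.81-fold. Thioredoxin itself (TXN) fell from 683 to 332 FPKM (-1.04, -1.07 to -1.02) and MSRB3 fell 2.01-fold. Both were within 2-fold of D0 again at D8, with 575 and 87.9 FPKM.

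NFE2L2, which encodes NRF2, had FPKM of 10.2 at D0 and then 10.7 (D2), 11.5 (D4) and 10.2 (D8), and its inhibitor KEAP1 had 17.7, 19.9, 20.0 and 15 FPKM. BACH1, a repressor of HMOX1, had 13.6 FPKM at D0 and 8.13 to 8.88 afterwards, a difference under 2-fold. Of 17 reliably expressed genes of the NRF2 list, 2 were at least 2-fold higher at D4 than at D0 and 1 was lower, near the 10.4% and 8.81% of all mRNAs. The median was 0.17, beside 0.06 for all mRNAs. The epoxide hydrolase EPHX1 rose 5.54-fold and the carbonyl reductase CBR1 2.25-fold, while the small MAF protein gene MAFF fell 5.34-fold. CBR1 was highest at D8, with 27.7 FPKM. This list joins regulators, among them NFE2L2, KEAP1, BACH1 and MAFF, with targets, so its counts are not those of NRF2 targets alone. NQO1 and HMOX1 themselves are not in it. Only RNA was measured, so the amount and activity of the NRF2 protein are not known.

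For the genes of NADPH supply, 4 of 14 were at least 2-fold higher and 1 lower at D4, against 10.4% and 8.81% of all mRNAs, with a median of 0.38 beside 0.06. The malic enzyme gene ME1 rose 6.14-fold and stood higher still at D8 (33.4 FPKM against 26.0), IDH1 rose 2.34-fold, and MTHFD2 of the mitochondrial folate pathway fell 2.85-fold. Of 13 genes for haem and iron handling, 3 were at least 2-fold higher at D4 than at D0 and none lower, against 10.4% and 8.81% of all mRNAs, with a median of 0.67 beside 0.06. Among those with at least 10 FPKM in a library were the ferritin chains, FTL from 1217 to 3989 FPKM (3.28-fold) and FTH1 from 227 to 649 FPKM (2.86-fold). Of the same 13 genes, 4 fell from D4 to D8, against 10.1% of all mRNAs, with a median of -0.63 beside -0.21, FTL to 1463 and FTH1 to 268 FPKM. After median-ratio scaling 3 fell, against 5.94% of all mRNAs.

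In the list of copper handling and superoxide sources, 2 of 7 genes were at least 2-fold higher at D4 and none lower, against 10.4% and 8.81% of all mRNAs, with a median of 0.24 beside 0.06. The oxidases AOX1 and MAOA, which form hydrogen peroxide, rose 4.91-fold and 3.12-fold. NOX4, an oxidase that releases hydrogen peroxide, had at most 0.220 FPKM. Of 13 genes for selenoproteins and their synthesis, 1 was at least 2-fold higher and 3 were lower at D4, against 10.4% and 8.81% of all mRNAs, with a median of -0.13 beside 0.06. SELENOP rose 14.3-fold from 40.7 to 583 FPKM, close to CAT in size, whereas SELENOM fell 3.67-fold and SELENOS 2.15-fold. In the peroxisome list, 7 of 20 genes were at least 2-fold higher at D4 than at D0 and none was lower, against 10.4% and 8.81% of all mRNAs, with a median of 0.42 beside 0.06. After median-ratio scaling 5 were higher, against 9.57% of all mRNAs. ACAA1, a thiolase of peroxisomal beta-oxidation, rose 8.33-fold, from 8.59 to 71.7 FPKM. At D8, ACAA1 had 41.4 FPKM, and the median of the list for D8 vs D4 was -0.32, beside -0.21 for all mRNAs.

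**Figure D4:**
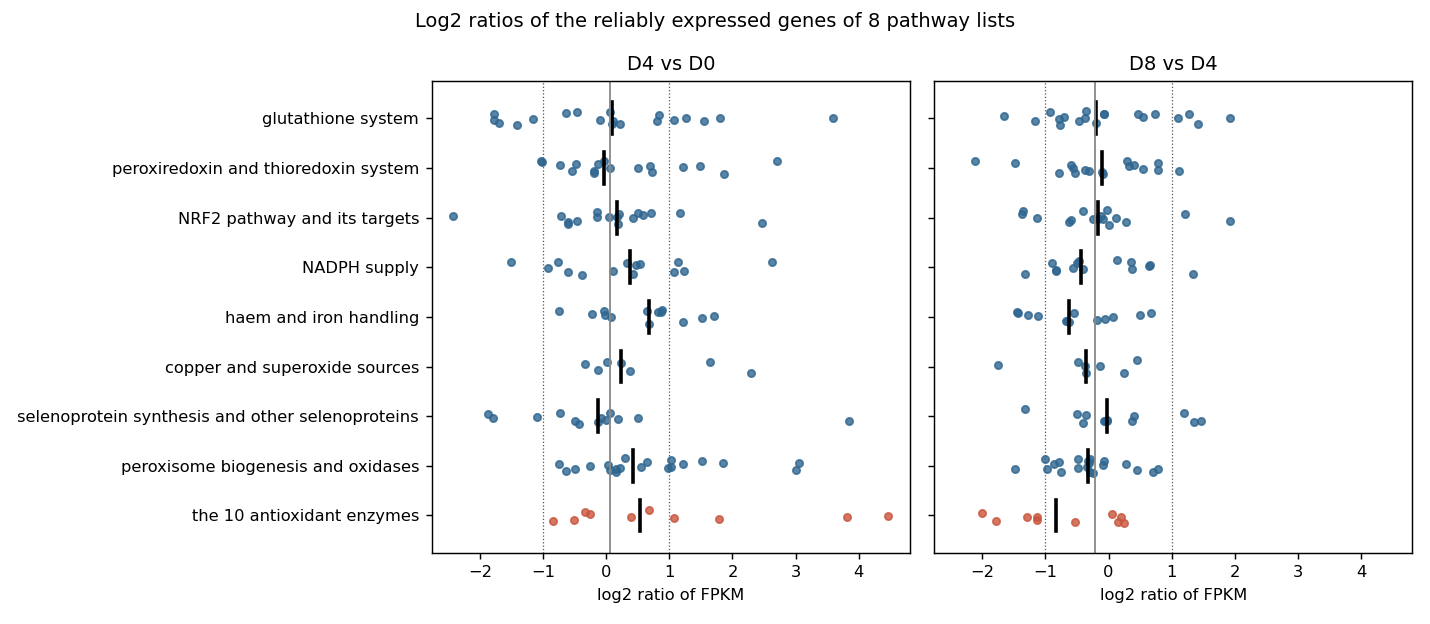
Log2 ratio of FPKM (horizontal axis) of each reliably expressed gene of the 8 pathway lists (blue) and of the 10 antioxidant enzymes (red) for D4 vs D0 and D8 vs D4, with the median of each list as a black bar, the median of all 9191 mRNAs as a grey line and 2-fold as dotted lines. Points are spread vertically within a list for legibility. The red points range from below 0 to 4.47 in D4 vs D0, while the black bars of the 8 lists lie between -0.13 and 0.67.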

How the data were processed

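The members and lists were chosen with earlier results of these data known. Total RNA was sequenced in 4 libraries, D0, D2, D4 and D8, each pooled from 3 piglets. Per the methods and the submitters' processing notes, the authors removed poor reads, mapped the rest to Sscrofa11.1 (HISAT2 2.0.5), identified circRNAs with BWA-MEM and CIRI, and deposited FPKM for genes and SRPBM for circRNAs in a single column. The counting tool and its strand setting are not given in the sources used here. Ratios were computed as log2(FPKM + 0.01) in Python 3.11.15 with numpy 2.4.6, pandas 2.3.3 and scipy 1.17.1, and figures with matplotlib 3.10.9. Reads were recovered as the smallest transcript length, from 100 to 40000 bases, at which all 4 FPKM values corresponded to whole numbers within 0.005. The library totals used for this were computed from count and normalized columns of the study's gene lists. If the true length is a multiple, the intervals are too wide. Recovery and calls were tested on simulated reads with counting error alone, which does not cover variation between piglets or libraries. The 95% intervals of ratios use a normal approximation with Poisson variance, and those of levels are exact Poisson intervals.

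Stage was taken from the labels. The study calls genes with DEGseq, which takes counting error as the only variation. That test was not used, and the 2-fold ratio alone was applied to the 9191 reliably expressed mRNAs. All 10 members are named. From each list, the pair with the largest rise and the pair with the largest fall at D4 vs D0 are named, among genes past 2-fold with FPKM of at least 10 in a library. Further GPX and PRDX genes, NFE2L2, KEAP1, BACH1 and the pair of genes most like each member past 2-fold are named too. A gene that this rule names in the peroxisome list is not reported here. NOX4, and single markers, were named after their values were seen. Of the 144 list genes, 136 were found by symbol. Positions were matched to RefSeq by symbol, start and end for 10 of 10 members. Alternatives were pseudocounts of 0.1 and 1, no filter, median-ratio scaling, scaling to the protein-coding sum and a 1.5-fold threshold.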

Additional observations from a re-analysis of the deposited data

How the results depend on the processing

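No paired analysis was possible because each stage has 1 library, and for the same reason no library could be left out. Of the 50 log2 ratios of the 10 genes, none changed sign under the pseudocounts of 0.1 and 1, median-ratio scaling or scaling to the protein-coding sum. The side of 2-fold changed for 2 ratios with a pseudocount of 1 (SOD3 in D8 vs D4 and in D8 vs D0) and for 2 with median-ratio scaling (SOD3 and NQO1 in D8 vs D4). The number of genes past the threshold in D8 vs D4 was 5, and 3 after median-ratio scaling. With a 1.5-fold threshold it was 4 instead of 1 in D4 vs D2 and 6 instead of 3 in D8 vs D0. In the other comparisons and settings the number stayed within 1.5 times that reported. The filter on low FPKM removed none of the 10 genes. Without it, 18.7% (D4 vs D2) to 32.2% (D4 vs D0) of all 16192 protein-coding genes passed 2-fold, instead of 5.08% to 19.2%. With the 1.5-fold threshold the share of reliably expressed mRNAs was 14.6% to 39.5%. Depth limits SOD3 above all, with 70 reads at D8, and the CAT circRNAs, with at most 17 junction reads.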
